A study of Mus musculus with 18 samples.

Results

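The genes described here are 9 transcription regulators measured in 3 thymic subsets of iNKT (invariant natural killer T) cells, T cells that recognise lipids on CD1d. They are Id2 and Id3 (Id proteins), Tcf3, Tcf4 and Tcf12 (E proteins), Tcf7 and Lef1 (TCF1 and LEF1), Sox4 and Bach2. Each was taken by its symbol from the table of gene counts, and all 9 were found among the 23337 genes listed, of which 15582 had a count. After the filter on low counts 11118 genes were tested, and these included all 9.

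RNA was sequenced from sorted NKT1, NKT2 and NKT17 thymocytes of WT and SKG mice. Zap70, which encodes a kinase downstream of the T cell receptor (TCR), carries a spontaneous hypomorphic point mutation in SKG mice. The mutation is in the germline, so it is not limited to iNKT cells. Both genotypes were on the BALB/c background and, per the study's methods, were bred from the same intercross of BALB/cJ and SKG mice. The labels name no transgene or Cre line. The 6 groups, WT NKT1, WT NKT2, WT NKT17, SKG NKT1, SKG NKT2 and SKG NKT17, had 3 libraries each. NKT1 cells were gated on CD49a with low ICOS, NKT2 cells on high ICOS, CD4 and TCR beta without CD49a or Sdc-1, and NKT17 cells on Sdc-1 and high ICOS without CD49a. The age and number of the mice behind a library, and whether mice were pooled, were not given in the sources used here, so p-values measure the spread between these libraries, which may be technical in part.

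Libraries held 4391029 to 8895917 counts, in which 3 counts correspond to 0.362 to 0.661 CPM, the count scaled to a common library size. Levels are given as CPM after TMM scaling, in the order of replicates 1, 2 and 3 where they are listed and as mean ± SD (n = 3) otherwise. A gene was called at a fold change of at least 1.5 and a Benjamini-Hochberg adjusted p under 0.1, by the quasi-likelihood test of edgeR with adjustment over all tested genes. Every adjusted p below comes from this test. Zap70 itself had 360.2 to 852 CPM in the 18 libraries and was not called between SKG and WT in any subset, its log2 fold changes of -0.24, -0.39 and -0.58 in NKT1, NKT2 and NKT17 cells being under the fold-change minimum (adjusted p 0.360, 0.0378 and 0.00174). The sorted cells carried their subset's transcripts, with a summed level of 6 NKT1 markers of 3818 to 5106 CPM in NKT1 libraries against 159 to 406 CPM in the others, and of 6 NKT17 markers of 2163 to 2318 CPM in NKT17 libraries against 0.483 to 13.9 CPM. The 6 NKT2 markers summed to 1891 to 2439 CPM in NKT2 libraries, 1543 to 1903 CPM in NKT17 libraries and 464 to 646 CPM in NKT1 libraries. These sums overlapped between NKT2 and NKT17 libraries, so they do not tell these subsets apart. The lists include Itga1 (CD49a), Icos and Sdc1, whose products were used in the sort. The separation by these sums was thus in part set by the gates. In bulk RNA, fewer cells that express a gene and less RNA of it per cell cannot be told apart.

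E proteins are helix-loop-helix transcription factors that bind DNA at E-box sequences as dimers. Id proteins have the helix-loop-helix part without the DNA-binding part, so they pair with E proteins and hold them off DNA, and in thymocytes Id3 is known as a gene induced by TCR signals through Egr factors. TCF1 and LEF1 are HMG-box proteins that bind a shared sequence, can recruit beta-catenin or Groucho/TLE corepressors, and are needed for early T cell and iNKT cell development. Sox4 is another HMG-box factor, and Bach2 is a repressor that competes with AP-1 in lymphocytes.

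The regions just upstream of the annotated starts of Id3 and Lef1 are shown because these were the members that fell in SKG cells, and that of Id2 because it is the abundant partner of Id3 in the same family. The sequences are from RefSeq on build GRCm38.p6, each 250 bases long, read 5′ to 3′ on the gene's strand up to the base before the start. For Lef1, which has 4 starts in the table, the most upstream one was taken. Capitals mark E-boxes (CANNTG).
Id3, chr4:136143572-136143821, plus strand: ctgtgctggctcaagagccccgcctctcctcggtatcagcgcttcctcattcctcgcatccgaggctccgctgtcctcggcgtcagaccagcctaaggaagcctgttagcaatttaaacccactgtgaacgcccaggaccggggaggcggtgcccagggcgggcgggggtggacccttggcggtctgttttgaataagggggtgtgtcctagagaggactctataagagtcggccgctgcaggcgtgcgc
Lef1, chr3:131110047-131110296, plus strand: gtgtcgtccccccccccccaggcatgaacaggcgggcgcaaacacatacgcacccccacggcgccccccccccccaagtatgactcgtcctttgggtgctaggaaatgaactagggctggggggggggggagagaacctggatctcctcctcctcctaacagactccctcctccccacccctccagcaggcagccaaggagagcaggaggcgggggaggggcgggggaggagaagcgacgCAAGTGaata
Id2, chr12:25096093-25096342, minus strand: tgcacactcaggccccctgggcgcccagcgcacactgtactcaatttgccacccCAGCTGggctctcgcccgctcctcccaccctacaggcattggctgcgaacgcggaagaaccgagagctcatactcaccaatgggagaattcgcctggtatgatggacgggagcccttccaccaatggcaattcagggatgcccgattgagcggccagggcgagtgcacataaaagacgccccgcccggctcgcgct
The windows of Id2 and Lef1 held 1 E-box each and that of Id3 held 0, whereas 66.2% of the 32851 promoter windows of this length held at least 1. On either strand, the TCF/LEF motif CTTTGAT (in 3.21% of all windows) and the Egr motif GCGTGGGCG (in 0.536%) were found in none of these 3 windows. A match or its lack describes the letters of these windows only, and nothing was measured at these regions here.

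Id3 fell in SKG cells of every subset, by most in NKT17 cells. In WT NKT1 cells it was at 23.4, 24.1 and 25.5 CPM, and in SKG NKT1 cells at 6.32, 4.17 and 7.62 CPM. In NKT2 cells the WT libraries had 458, 584 and 440.2 CPM and the SKG libraries 76.9, 63.2 and 99.7 CPM. In NKT17 cells the WT libraries had 318, 344 and 161 CPM and the SKG libraries 19.7, 16.7 and 16.9 CPM. Libraries of the 2 genotypes did not overlap in any of the 3 subsets, and even the WT NKT17 replicate with the lowest level lay far above the SKG libraries. Id3 was 3.98-fold lower in SKG NKT1 cells (log2 fold change -1.99, SE 0.29, adjusted p 0.000808). It was 6.17-fold lower in SKG NKT2 cells (log2 fold change -2.62, SE 0.24, adjusted p 1.02e-06) and 15.4-fold lower in SKG NKT17 cells (log2 fold change -3.94, SE 0.26, adjusted p 4.30e-08). Each of these calls was also made under all 16 alternatives tried. Id3 (ENSMUSG00000007872.3, chromosome 4, 135699412 to 135701670 on NCBIM37, plus strand) overlaps no other annotated gene.

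**Figure D1:**
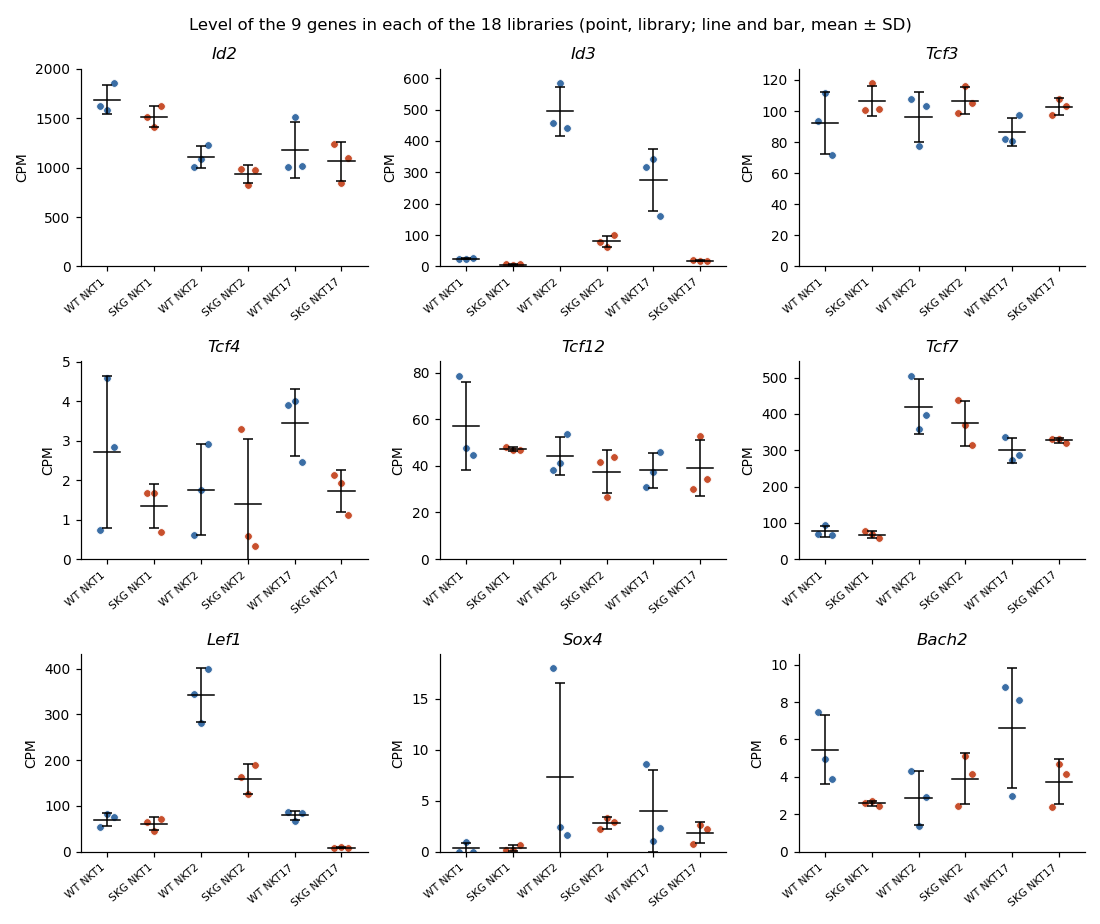
Levels of the 9 genes in CPM (linear axes that start at 0, a scale of its own for each gene) in the 6 groups; points are libraries, lines and bars are the mean ± SD of 3 libraries, with bars ended at 0. The SKG points (red) of Id3 lie below the WT points (blue) in all 3 subsets, those of Lef1 in NKT2 and NKT17 only, and those of Tcf7 overlap the WT points throughout.

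The order of Id3 levels placed every group apart from the next. WT NKT2 cells were highest, followed by WT NKT17, SKG NKT2, WT NKT1, SKG NKT17 and SKG NKT1 cells, and the ranges of neighbouring groups in this order did not overlap. Within WT, NKT1 cells had 20.3-fold less Id3 than NKT2 cells (log2 fold change -4.34, SE 0.26, adjusted p 6.31e-10) and 11.3-fold less than NKT17 cells (log2 fold change -3.49, SE 0.25, adjusted p 5.77e-09). Id3 was also lower in WT NKT17 than in WT NKT2 cells (log2 fold change -0.85, SE 0.22, adjusted p 0.00987), a call that was lost by the fold-change minimum without WT NKT17 replicate 3 (log2 fold change -0.58). In SKG cells the same order of the 3 subsets was seen at lower levels. There, Id3 was 13.1-fold lower in NKT1 than in NKT2 cells (adjusted p 2.80e-08), 2.92-fold lower in NKT1 than in NKT17 cells (adjusted p 0.000732) and 4.49-fold lower in NKT17 than in NKT2 cells (adjusted p 4.37e-06).

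The size of the Id3 change was compared between subsets as an interaction of genotype and subset. The fall in NKT17 cells exceeded that in NKT1 cells by 1.95 on the log2 scale (log2 difference -1.95, SE 0.39, adjusted p 0.0104). It exceeded that in NKT2 cells by a log2 difference of -1.32 (SE 0.33, adjusted p 0.0629), and this call was lost in 9 of 12 fits that left out 1 library, with adjusted p-values up to 0.167 (only without WT NKT2 replicate 2, SKG NKT2 replicate 2 or WT NKT17 replicate 3 was it kept). The falls in NKT2 and NKT1 cells were not shown to differ (log2 difference -0.63, 95% interval -1.44 to 0.17, adjusted p 0.508). Using only the 12 libraries whose title token occurs in both genotypes, neither difference passed (log2 difference -1.56, adjusted p 0.314 against NKT1 and -0.92, adjusted p 0.673 against NKT2), although the fall of Id3 within each subset did.

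Id2, the other Id gene, was abundant in all groups and was not called between SKG and WT in any subset. It was at 1618, 1583 and 1854 CPM in WT NKT1 and 1507, 1415 and 1627 CPM in SKG NKT1 cells. In NKT2 cells it was at 1003, 1089.8 and 1227 CPM in WT and 988, 828 and 979.5 CPM in SKG, and the 2 sets did not overlap. In NKT17 cells the WT libraries had 1011, 1509.5 and 1019 CPM and the SKG libraries 1242, 845 and 1098 CPM. Each log2 difference between SKG and WT was small beside that of Id3 and was negative (NKT1 -0.15, 95% interval -0.46 to 0.15, adjusted p 0.730; NKT2 -0.25, -0.55 to 0.06, adjusted p 0.363; NKT17 -0.15, -0.46 to 0.15, adjusted p 0.616). Between subsets, Id2 went the other way from Id3. It was higher in NKT1 than in NKT2 cells of WT (log2 fold change 0.61, SE 0.15, adjusted p 0.00297) and of SKG (0.70, SE 0.15, adjusted p 0.00121). The WT difference lay close to the fold-change minimum and fell under it in 3 of 6 fits without 1 library, to log2 fold changes of 0.52 without WT NKT2 replicate 1, 0.58 without WT NKT2 replicate 2 and 0.52 without WT NKT1 replicate 3. With these, it was not called in 6 of 16 alternatives. The others were upper-quartile scaling, a mean of at least 50 counts, and only the title tokens found in both genotypes. Against NKT17, the log2 fold changes of 0.51 in WT (adjusted p 0.0107) and 0.51 in SKG (adjusted p 0.0115) passed the p threshold and not the fold-change minimum. Id2 (ENSMUSG00000020644.8) lies on chromosome 12 (25778666 to 25780957, minus strand).

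The balance of the 2 Id genes was also read within single libraries, where library scaling cannot move it. The number of Id2 reads per Id3 read was 65.8 to 72.7 in WT NKT1 and 213 to 340 in SKG NKT1 libraries. In NKT2 libraries it was 1.87 to 2.79 in WT and 9.82 to 13.1 in SKG, and in NKT17 libraries 3.18 to 6.32 in WT and 50.5 to 65.0 in SKG. The ratios of SKG NKT17 libraries came close to those of WT NKT1 libraries without overlapping them. Per length over annotated exons, where levels of different genes can be set side by side, Id3 made up 24.1 ± 3.64% of the summed Id2 and Id3 level in WT NKT2 and 5.70 ± 0.896% in SKG NKT2 cells. In NKT17 cells this share was 14.1 ± 4.08% in WT and 1.19 ± 0.168% in SKG, and in NKT1 cells 1.02 ± 0.0498% and 0.279 ± 0.0633%. The share of Id3 depends on the length used. In WT NKT2 cells Id3 had a mean of 276 CPM per kb of exon union and 387 CPM per kb of the longest transcript. Id2 had 871 CPM per kb with either length. The summed Id2 and Id3 level moved less, with 1147 ± 89.0 in WT NKT2 and 778 ± 78.9 CPM per kb in SKG NKT2 cells, 1082 ± 262 and 846 ± 159 CPM per kb in NKT17 cells, and 1340.4 ± 116 and 1197 ± 84.7 CPM per kb in NKT1 cells.

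**Figure D2:**
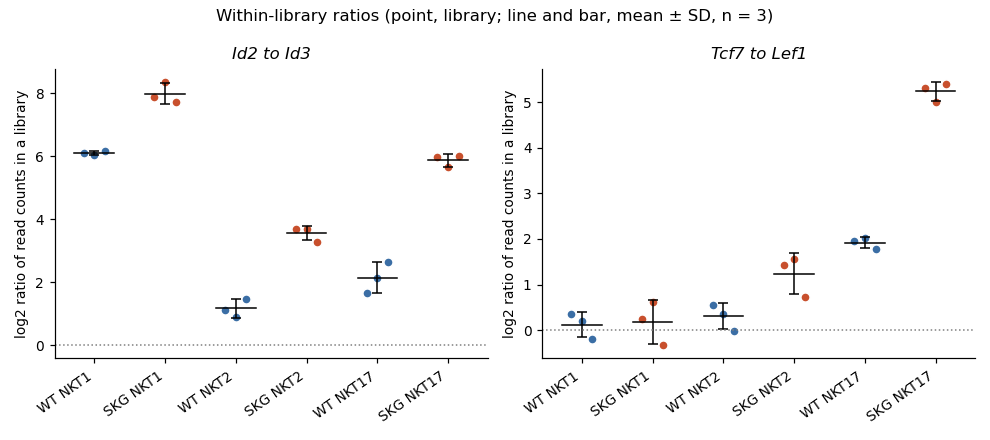
Within-library log2 ratios of read counts, Id2 to Id3 (left) and Tcf7 to Lef1 (right), in the 6 groups; points are libraries, lines and bars the mean ± SD of 3 libraries, and the dotted line marks equal counts. Id2 to Id3 rises from a mean of 2.15 in WT to 5.88 in SKG NKT17 cells and Tcf7 to Lef1 from 1.92 to 5.23, whereas the Tcf7 to Lef1 points of WT and SKG NKT1 cells overlap.

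The E-protein genes, whose products Id proteins bind, were not called in any comparison between genotypes or subsets by edgeR or DESeq2 with all libraries. Among the tests between SKG and WT, 0 of 9 had an unadjusted p under 0.05. Tcf3, which encodes the E2A proteins E12 and E47, was the main one, at 71.7 to 118 CPM in the 18 libraries. Its means were slightly higher in SKG than in WT, 107 ± 9.78 against 92.4 ± 20.0 CPM in NKT1, 107 ± 8.59 against 96.2 ± 16.3 CPM in NKT2 and 103 ± 5.43 against 86.6 ± 9.16 CPM in NKT17 cells. The NKT17 libraries of SKG and WT did not overlap (97.2, 108 and 103 against 81.8, 80.9 and 97.2 CPM), and the difference did not pass (log2 fold change 0.25, 95% interval -0.07 to 0.56, adjusted p 0.374). The lowest SKG and the highest WT value were nearly equal, at 97.173 and 97.172 CPM. Between subsets, Tcf3 log2 fold changes lay between -0.15 and 0.09. Tcf12, which encodes HEB, was at 26.8 to 78.6 CPM. Its largest difference was between WT NKT1 (78.6, 47.5 and 44.8 CPM) and WT NKT17 cells (31.0, 37.4 and 46.0 CPM), a log2 fold change of 0.58 that missed the fold-change minimum (adjusted p 0.0805) and ranged from 0.27 to 0.73 as single libraries were left out. It was called in 4 of 16 alternatives, namely with no fold-change minimum and without WT NKT1 replicate 2, WT NKT1 replicate 3 or WT NKT17 replicate 3. Between SKG and WT, Tcf12 had adjusted p-values of 0.694 in NKT1, 0.648 in NKT2 and 0.974 in NKT17 cells.

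Tcf4, which encodes E2-2, the E protein of plasmacytoid dendritic cells, was near the floor. It had 2 to 24 counts per library, or 0.321 to 4.58 CPM, and its intervals were wide, for example -2.66 to 0.69 for the log2 fold change between SKG and WT NKT1 cells (-0.98, adjusted p 0.673). Its WT and SKG libraries did not overlap in NKT17 cells (3.90, 4.00 and 2.47 against 2.12, 1.92 and 1.13 CPM), and the log2 fold change of -0.98 did not pass (95% interval -2.58 to 0.62, adjusted p 0.523). The intervals of Tcf4 thus hold changes of several fold, and no change. The 6 markers of plasmacytoid dendritic cells summed in NKT1 libraries to 144 to 164 CPM in WT and 83.5 to 105 CPM in SKG, in NKT2 libraries to 132 to 198 and 220.2 to 313 CPM, and in NKT17 libraries to 79.6 to 98.8 and 48.3 to 62.9 CPM. Of these markers Siglech had no count in any library, Irf8 was called lower in SKG NKT1 and NKT17 cells, and Ccr9 was called higher in SKG NKT1 cells. Their part in the values of Tcf4 was not tested. Per length, Tcf3 supplied most E-protein message, from 65.8 ± 7.16% of the sum of Tcf3, Tcf4 and Tcf12 in WT NKT1 to 77.1 ± 5.75% in SKG NKT2 cells. The E-protein sum itself was 29.6 ± 3.63 to 36.2 ± 2.34 CPM per kb over the 6 groups.

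Lef1 fell in SKG NKT2 and NKT17 cells and was not called in NKT1 cells. In NKT2 cells the WT libraries had 344, 281 and 399 CPM and the SKG libraries 162, 125 and 189 CPM. In NKT17 cells the WT libraries had 86.7, 67.1 and 83.7 CPM and the SKG libraries 8.22, 10.3 and 7.51 CPM, with 40 to 59 reads each. Neither pair of groups overlapped. Lef1 was 2.15-fold lower in SKG NKT2 (log2 fold change -1.10, SE 0.19, adjusted p 0.000495) and 9.11-fold lower in SKG NKT17 cells (log2 fold change -3.19, SE 0.22, adjusted p 1.72e-08), and both calls were made under all 16 alternatives. In NKT1 cells WT (54.0, 81.5 and 75.1 CPM) and SKG libraries (65.0, 44.8 and 72.1 CPM) overlapped (log2 fold change -0.20, 95% interval -0.61 to 0.20, adjusted p 0.723). Lef1 (ENSMUSG00000027985.8) lies on chromosome 3 (130813389 to 130927274, plus strand).

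The SKG effect on Lef1 was called different between each pair of subsets. The fall in NKT17 exceeded the change in NKT1 by a log2 difference of -2.98 (SE 0.30, adjusted p 5.74e-06) and the fall in NKT2 by -2.09 (SE 0.29, adjusted p 0.000386), and both were called in all 22 alternatives. The difference between NKT2 and NKT1 was -0.90 (SE 0.27, adjusted p 0.0870) and rested on single libraries. It was lost in 7 of 12 fits that left out 1 library, with adjusted p-values up to 0.208, and these were the fits without replicate 1 of WT NKT1, WT NKT2, SKG NKT1 or SKG NKT2, without SKG NKT2 replicate 2, and without replicate 3 of WT NKT2 or SKG NKT1. Of the 9 members, 1 (Lef1) was called in this last comparison, 2 (Id3 and Lef1) in NKT17 against NKT1 and 2 (Id3 and Lef1) in NKT17 against NKT2. Over all tested genes the calls were 3.87%, 4.17% and 2.19%.

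The order of Lef1 among subsets was not the same in WT and SKG. In WT, NKT2 cells had 4.88-fold more Lef1 than NKT1 cells (adjusted p 9.51e-09) and 4.31-fold more than NKT17 cells (adjusted p 4.21e-08), and NKT1 and NKT17 cells did not pass (log2 fold change -0.18, 95% interval -0.58 to 0.22, adjusted p 0.560). In SKG, NKT2 cells were still highest, NKT1 cells followed (2.62-fold lower than NKT2, adjusted p 1.41e-05), and NKT17 cells were lowest (18.3-fold lower than NKT2, adjusted p 1.41e-11). SKG NKT1 cells had 6.99-fold more Lef1 than SKG NKT17 cells (log2 fold change 2.81, SE 0.22, adjusted p 3.50e-09). In the order of all 6 groups, WT NKT17, WT NKT1 and SKG NKT1 cells overlapped, and WT NKT2, SKG NKT2 and SKG NKT17 cells each stood apart.

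Tcf7, which encodes TCF1, separated NKT1 cells from the other subsets and was not called between genotypes. It was at 68.5, 94.1 and 66.1 CPM in WT NKT1 and 77.3, 68.3 and 57.2 CPM in SKG NKT1 cells. In NKT2 cells the WT libraries had 505.05, 359.8 and 397 CPM and the SKG libraries 439, 369 and 314 CPM. In NKT17 cells they had 337, 273 and 288 CPM in WT and 330.0, 331 and 319 CPM in SKG. WT and SKG libraries overlapped in all subsets, with log2 fold changes of -0.17 in NKT1 (95% interval -0.50 to 0.16, adjusted p 0.715), -0.17 in NKT2 (-0.48 to 0.14, adjusted p 0.585) and 0.13 in NKT17 (-0.18 to 0.44, adjusted p 0.6998). The intervals hold no change as large as that of Lef1 in NKT17 cells. Tcf7 was 5.52-fold lower in WT NKT1 than in WT NKT2 (log2 fold change -2.47, SE 0.16, adjusted p 6.64e-11) and 3.93-fold lower than in WT NKT17 cells (log2 fold change -1.98, SE 0.16, adjusted p 1.35e-09). In SKG it was 5.53-fold lower in NKT1 than in NKT2 (adjusted p 1.38e-10) and 4.84-fold lower than in NKT17 cells (adjusted p 2.21e-10). Tcf7 in WT NKT17 cells was below that in WT NKT2 cells by less than the fold-change minimum (log2 fold change -0.49, SE 0.15, adjusted p 0.0204). Tcf7 (ENSMUSG00000000782.8, chromosome 11, 52065873 to 52096681, minus strand) overlaps the annotated genes Gm16953 on its own strand and A630014C17Rik on the other, so its counts may hold reads of these, or lack reads set aside as ambiguous.

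The number of Tcf7 reads per Lef1 read within a library was 3.43 to 4.07 for WT and 32.2 to 42.55 for SKG in NKT17 cells, and 0.994 to 1.47 for WT and 1.66 to 2.94 for SKG in NKT2 cells. In NKT1 cells it was 0.880 to 1.27 in WT and 0.793 to 1.53 in SKG libraries, which overlapped. Per length over annotated exons, the summed Tcf7 and Lef1 level was 116 ± 13.0 in WT and 118 ± 2.43 CPM per kb in SKG NKT17 cells, and Lef1 made up 7.86 ± 0.646% of it in WT and 0.847 ± 0.128% in SKG. In NKT2 cells the sum was 190.2 ± 29.7 and 152 ± 21.3 CPM per kb, of which Lef1 made up 20.9 ± 3.30% and 12.3 ± 3.47%. The share of Lef1 depends on the length used, since its mean level over all libraries was 13.9 CPM per kb of exon union and 32.8 CPM per kb of the longest transcript.

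**Figure D3:**
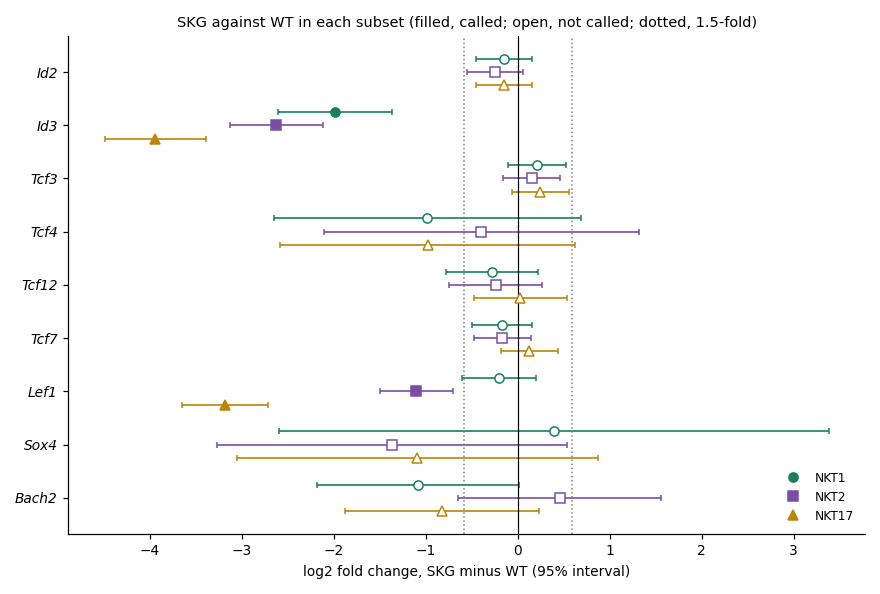
Log2 fold changes of the 9 genes between SKG and WT cells of each subset (NKT1 circles, NKT2 squares, NKT17 triangles), with 95% intervals; filled symbols were called, and dotted lines mark a 1.5-fold change. Id3 is filled in all 3 subsets (-1.99, -2.62 and -3.94), Lef1 in NKT2 (-1.10) and NKT17 (-3.19), and the wide intervals of Tcf4, Sox4 and Bach2 cross 0.

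Sox4 and Bach2 were low in all groups. Sox4, an HMG-box factor of developing lymphocytes, had 0, 5 and 0 counts in WT NKT1 and 1, 1 and 4 counts in SKG NKT1 libraries. It had 88, 14 and 10 counts in WT NKT2 and 10, 17 and 18 in SKG NKT2 libraries, and 44, 6 and 17 in WT NKT17 and 5, 15 and 12 in SKG NKT17 libraries. WT replicate 1 stood above the others in both NKT2 and NKT17 cells. Sox4 was called lower in WT NKT1 than in WT NKT2 (log2 fold change -4.61, SE 1.17, adjusted p 0.00421) and than in WT NKT17 cells (log2 fold change -3.72, SE 1.17, adjusted p 0.0202). Without WT NKT2 replicate 1 the former became -2.78 (adjusted p 0.0768), and without WT NKT17 replicate 1 the latter became -2.55 and was lost (adjusted p 0.147). Without WT NKT1 replicate 2, the one WT NKT1 library with reads, these values were -8.41 and -7.52, which depend on the prior count. In SKG, Sox4 was called lower in NKT1 than in NKT2 cells (log2 fold change -2.85, SE 1.16, adjusted p 0.0918), a call lost without any one of the 6 libraries (adjusted p up to 0.236). Between SKG and WT it did not pass, with log2 fold changes of 0.39 in NKT1 (adjusted p 0.960), -1.36 in NKT2 (adjusted p 0.432) and -1.09 in NKT17 cells (adjusted p 0.568). The annotation has the lincRNA Gm17419 on the other strand of Sox4 (chromosome 13, 29040788 to 29045582), whose reads could be counted with it or make it ambiguous. A second entry under the symbol Sox4 lies inside it on the same strand (29042607 to 29043011). How reads in that stretch were counted is not known.

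Bach2 had 8 to 62 counts per library and was not called in any comparison. In NKT1 cells its WT libraries (7.49, 4.96 and 3.90 CPM) lay above its SKG libraries (2.60, 2.71 and 2.43 CPM) without overlap, and the difference did not pass (log2 fold change -1.08, 95% interval -2.18 to 0.01, adjusted p 0.367). Its adjusted p between SKG and WT was 0.702 in NKT2 and 0.383 in NKT17 cells. Between WT NKT17 and WT NKT2 cells Bach2 had a log2 fold change of 1.21 (SE 0.52, adjusted p 0.105), which was called in 4 of 15 alternatives, those being DESeq2, the replicate block, and the fits without WT NKT2 replicate 1 and without WT NKT17 replicate 2. Bach2 (chromosome 4, 32325779 to 32673083) is a long gene in which other annotated genes lie, among them BC024582 on the other strand.

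SKG NKT1 cells differed from WT NKT1 cells in 1 of 9 members (Id3, lower), where 3.27% of the 11118 tested genes were called, 1.46% higher and 1.82% lower. SKG NKT2 cells differed in 2 (Id3 and Lef1, lower) against 7.95% of all genes, 3.90% higher and 4.05% lower. SKG NKT17 cells differed in 2 (Id3 and Lef1, lower) against 8.37%, 3.83% higher and 4.54% lower. No member was called higher in SKG in any subset. The libraries of SKG and WT did not overlap for 2 members in NKT1 (Id3 and Bach2), 3 in NKT2 (Id2, Id3 and Lef1) and 4 in NKT17 cells (Id3, Lef1, Tcf3 and Tcf4), and for 16.3%, 30.1% and 26.9% of all tested genes. Of these, Bach2, Id2, Tcf3 and Tcf4 did not pass the test, and the Tcf3 libraries of the 2 genotypes nearly touched. In the same order of subsets, the median log2 fold change of the 9 members was -0.20, -0.25 and -0.82, and that of all tested genes -0.0067, -0.0036 and 0.0045. The NKT17 median is that of Bach2, which did not pass.

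**Figure D4:**
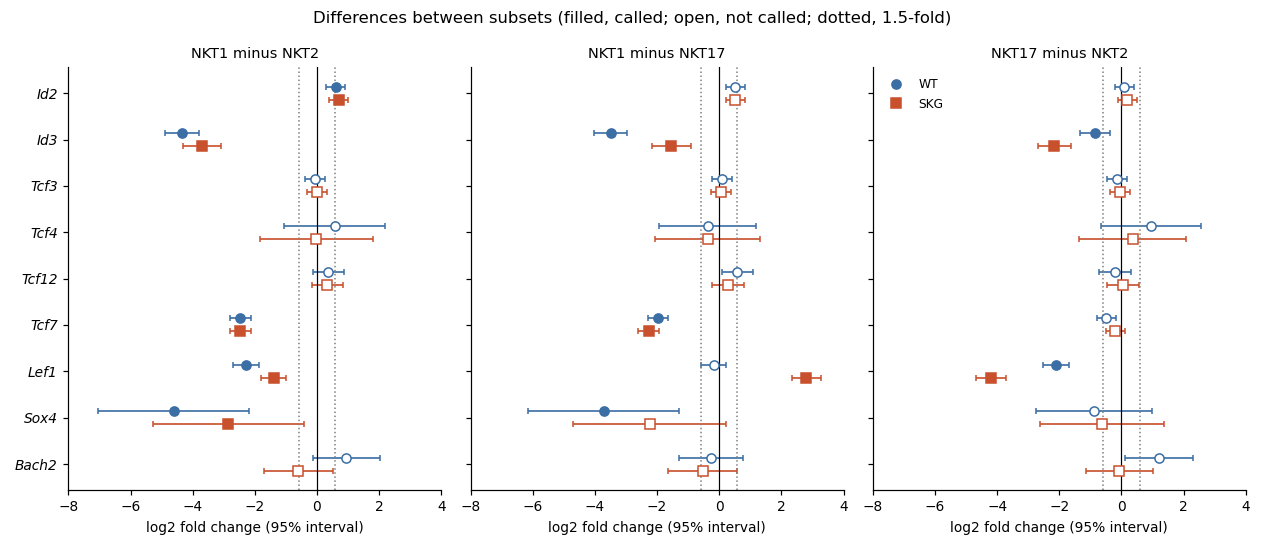
Log2 fold changes of the 9 genes between subsets in WT (circles) and SKG (squares), with 95% intervals; filled symbols were called, and dotted lines mark a 1.5-fold change. Tcf7 lies at nearly the same place in both genotypes in each panel, whereas Lef1 moves from -0.18 in WT to 2.81 in SKG between NKT1 and NKT17 cells.

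Between subsets, more members were called, as were more genes of all kinds. Between WT NKT1 and WT NKT2 cells 5 of 9 were called, Id2 higher in NKT1 and Id3, Tcf7, Lef1 and Sox4 lower, against 27.5% of all genes (13.7% higher and 13.7% lower). Between WT NKT1 and WT NKT17 cells 3 were called, Id3, Tcf7 and Sox4, all lower in NKT1, against 24.7% (11.2% higher and 13.5% lower). Between WT NKT17 and WT NKT2 cells 2 were called, Id3 and Lef1, lower in NKT17, against 20.0% (11.0% higher and 8.97% lower). In SKG the counts were 5 for NKT1 against NKT2, with the members and directions as in WT, where 18.7% of all genes were called (10.0% higher and 8.63% lower). They were 3 for NKT1 against NKT17, Lef1 higher and Id3 and Tcf7 lower, against 22.8% (10.2% higher and 12.5% lower), and 2 for NKT17 against NKT2, Id3 and Lef1 lower, against 18.8% (10.5% higher and 8.27% lower). These comparisons share libraries with each other and with those between genotypes.

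Ranked by level per length of exon union, Id2 was the most abundant member in every group, from 734 ± 70.9 CPM per kb in SKG NKT2 to 1327 ± 116 CPM per kb in WT NKT1 cells. In WT NKT2 cells it was followed by Id3 (276 ± 43.7 CPM per kb), Tcf7 (151 ± 27.1), Lef1 (39.5 ± 6.82) and Tcf3 (23.8 ± 4.03). In SKG NKT17 cells Tcf7 (117 ± 2.30 CPM per kb) and Tcf3 (25.5 ± 1.35) came next, Id3 (9.93 ± 0.926) lay close to Tcf12 (8.02 ± 2.49), and Lef1 (1.00 ± 0.167) lay below them.

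Markers of other cells were read beside these results. Of 8 markers of double-positive thymocytes, Rag1, Rag2, Dntt and Arpp21 had no count in WT or SKG NKT17 libraries, where the list summed to 11.7 to 35.5 CPM in WT and 35.9 to 65.7 CPM in SKG. In NKT2 libraries that sum, which includes Cd4, was 365 to 398 CPM in WT and 204 to 242 CPM in SKG, with Rag1 at 0 in both, Rag2 and Dntt at 0 in WT, and 1 count of Rag2 and 3 of Dntt over the SKG libraries. Cd8b1 was called higher in SKG NKT17 cells (22.5 ± 12.7 against 6.54 ± 5.05 CPM, log2 fold change 1.78, adjusted p 0.0915), where Cd8a had 5.37 ± 4.64 against 1.28 ± 1.19 CPM and was not called. The 6 markers of immature iNKT cells (among them Cd24a, Cd69 and Satb1) summed to 444 to 758 CPM in WT NKT2 and 1067 to 1156 CPM in SKG NKT2 libraries. In NKT17 libraries they summed to 231 to 298 and 239 to 336 CPM, with Cd24a at 0, and in NKT1 libraries to 921 to 981 and 785 to 815 CPM. Of the 5 of these markers that were tested, edgeR called 1 between SKG and WT NKT2 cells (Satb1, higher). It called 1 in NKT1 cells (Ccr9, higher) and 0 in NKT17 cells. Of 7 B cell markers Pax5 had no count in any library, while the sum was 694 to 996 CPM in SKG NKT17 libraries and 1935 to 2094 CPM in those of WT. Nearly all of it was Blk, which was called lower in SKG NKT17 cells (828 ± 146 against 2002 ± 79.1 CPM), while Cd79b was called higher there (34.6 ± 8.67 against 9.20 ± 1.44 CPM). Of 6 myeloid markers Csf1r, Itgam, Cd14 and C1qa had no count in NKT1 libraries. There the list summed to 272 to 523 CPM in WT and 172 to 212 CPM in SKG. Fcer1g made up nearly all of this sum, with 400 ± 126 CPM in WT NKT1 and 194 ± 21.1 CPM in SKG NKT1 cells. EdgeR, but not DESeq2, called this fall. In the other subsets the mean of Fcer1g was at most 1.87 CPM, that of WT NKT2 cells. All 6 myeloid markers had counts in WT NKT2 cells, where the list summed to 2.86 to 15.2 CPM. The sums were 1.17 to 10.6 CPM in SKG NKT2, 0.586 to 3.57 CPM in WT NKT17 and 0.174 to 5.52 CPM in SKG NKT17 libraries. The part of these transcripts in the changes of Id3 and Lef1 was not tested.

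Genes that act upstream of Id3 or with E proteins were then examined. The Egr factors, which are induced by TCR signals, were not called between SKG and WT, 0 of 3 in each subset by edgeR. At an unadjusted p under 0.05 there were 1, 0 and 0 in NKT1, NKT2 and NKT17 cells, and DESeq2 called Egr2 lower in NKT1 cells, 1 of 3 there and 0 of 3 in each of the others. Egr1 averaged 171.7 in SKG and 179 CPM in WT NKT17 cells (log2 fold change -0.06, adjusted p 0.974). Egr2 was at 17.0 and 36.7 CPM in NKT1 cells (log2 fold change -1.11, SE 0.36, adjusted p 0.123), 63.1 and 70.3 CPM in NKT2 cells (-0.16, adjusted p 0.851) and 16.2 and 25.4 CPM in NKT17 cells (-0.64, adjusted p 0.324). In the 3 subsets the median log2 fold change of the Egr genes was 0.11, 0.60 and -0.61. Egr2 lay under this median in all 3 subsets and was thus the lowest of the 3 genes in each. Between WT subsets Egr2 was called lower in NKT1 and in NKT17 than in NKT2 cells (log2 fold changes -0.94 and -1.47, adjusted p 0.0425 and 0.00422), and Egr1 and Egr3 were not called.

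Of 7 tested genes of other Id and helix-loop-helix partners of E proteins, 0 were called in SKG NKT1 cells by edgeR or DESeq2 (1 at an unadjusted p under 0.05) and 2 each in SKG NKT2 and SKG NKT17 cells, 1 higher (Bhlhe40) and 1 lower (Cbfa2t3). The median log2 fold change of the list was -0.20, 0.45 and 0.09 in the 3 subsets, which can be set beside the medians of all tested genes given above. Of all tested genes, edgeR called 3.27%, 7.95% and 8.37% between SKG and WT in NKT1, NKT2 and NKT17 cells. Cbfa2t3 encodes ETO2, a corepressor that binds E proteins. It was at 68.5, 37.0 and 41.4 CPM in WT NKT17 and 2.83, 3.49 and 4.32 CPM in SKG NKT17 libraries (log2 fold change -3.79, SE 0.35, adjusted p 1.70e-07). In NKT2 cells it fell from 16.2 ± 3.27 to 3.43 ± 1.46 CPM (log2 fold change -2.26, SE 0.35, adjusted p 0.000153). Bhlhe40, a helix-loop-helix repressor, rose in NKT17 cells from 24.4 ± 15.9 in WT to 56.6 ± 4.28 CPM in SKG (log2 fold change 1.20, SE 0.31, adjusted p 0.0185). It also rose in NKT2 cells, to 8.38 ± 2.32 from 2.99 ± 0.654 CPM (adjusted p 0.0317), a value chosen after it was seen because its level is low.

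Of 9 tested genes known to respond to E or Id proteins, edgeR called 1 in NKT1, 2 in NKT2 and 1 in NKT17 cells and DESeq2 1, 3 and 1. At an unadjusted p under 0.05 there were 1, 5 and 2. In NKT1 cells 1 was called lower, Socs3 (22.9 ± 8.10 against 59.2 ± 25.6 CPM in WT, log2 fold change -1.38, SE 0.30, adjusted p 0.0193), with libraries that overlapped. In NKT2 cells 2 were called higher, among them Il7r, the interleukin-7 receptor chain (1038 ± 97.0 against 505.3 ± 54.9 CPM, log2 fold change 1.04, SE 0.10, adjusted p 2.57e-07). In NKT17 cells 1 was called lower, Ets1 (682 ± 18.9 against 1052 ± 174 CPM, log2 fold change -0.62, SE 0.18, adjusted p 0.0344). The median log2 fold change of the list was -0.11, 0.89 and 0.11 in the 3 subsets. EdgeR called 3.27%, 7.95% and 8.37% of all tested genes in the same comparisons.

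Of 17 tested genes of TCF/LEF cofactors and the Wnt pathway, 0 were called in SKG NKT1, 0 in SKG NKT2 and 1 in SKG NKT17 cells by edgeR and by DESeq2, where 2, 2 and 4 had an unadjusted p under 0.05. The gene was Tle4, a Groucho corepressor, at 22.7, 24.4 and 26.1 CPM in SKG and 43.3, 37.7 and 40.4 CPM in WT NKT17 libraries (log2 fold change -0.73, SE 0.19, adjusted p 0.0194). Ctnnb1, which encodes beta-catenin, had log2 fold changes of 0.12, -0.18 and -0.24 in NKT1, NKT2 and NKT17 cells (adjusted p 0.829, 0.599 and 0.419). Median log2 fold changes of the list were 0.12, 0.12 and 0.22. The edgeR calls over all tested genes were 3.27%, 7.95% and 8.37% in NKT1, NKT2 and NKT17 cells.

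Of the 10 genes known to respond to TCF1 or LEF1 (10 tested), calls went in both directions. In SKG NKT1 cells 2 were higher and 2 lower, in SKG NKT2 cells 3 higher and 2 lower, and in SKG NKT17 cells 4 higher and 2 lower. The median log2 fold change was -0.03, 0.56 and 0.61. Over all tested genes 1.46%, 3.90% and 3.83% were called higher and 1.82%, 4.05% and 4.54% lower in the same order. Myb, a proto-oncogene of lymphoid precursors, fell in the subsets where Lef1 fell. It was at 87.3, 53.5 and 58.5 CPM in WT NKT2 and 11.9, 11.9 and 10.3 CPM in SKG NKT2 libraries (log2 fold change -2.55, SE 0.52, adjusted p 0.00451), and at 85.1, 23.8 and 45.7 CPM in WT NKT17 and 0.425, 2.09 and 2.44 CPM in SKG NKT17 libraries (log2 fold change -5.00, SE 0.64, adjusted p 6.39e-05). Neither pair overlapped. S1pr1, the receptor for thymic exit, rose in SKG NKT1 (40.2 ± 9.07 against 11.0 ± 3.36 CPM, log2 fold change 1.86, adjusted p 0.00651) and SKG NKT17 cells (20.5 ± 3.97 against 1.62 ± 1.57 CPM, log2 fold change 3.62, adjusted p 2.52e-05). Il4ra rose in SKG NKT2 cells (70.0 ± 16.7 against 7.50 ± 2.24 CPM, log2 fold change 3.20, SE 0.24, adjusted p 9.00e-09). Themis, a TCR signalling adaptor, was called higher in SKG in all 3 subsets. In NKT1 cells it had 0, 0 and 2 counts in WT and 95, 112 and 97 counts in SKG libraries (adjusted p 1.07e-06), and its log2 fold change was 1.64 in NKT2 and 3.02 in NKT17 cells. The SKG effect on Themis was called larger in NKT1 than in NKT2 (adjusted p 0.000239) and NKT17 cells (adjusted p 0.0105). Further calls, named after their values were seen, were Slamf6 (lower in NKT1 and NKT17), Gata3 (lower in NKT2), and Ccr7 and Il4ra (higher in NKT17).

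Of 6 tested Sox and TOX genes, which share the HMG box with TCF1, LEF1 and Sox4, those called in SKG cells were lower, 1 in NKT1, 2 in NKT2 and 3 in NKT17 cells. Sox13, a factor of the interleukin-17 lineage of gamma delta T cells, was at 181, 138 and 104 CPM in WT NKT2 and 7.71, 5.29 and 4.18 CPM in SKG NKT2 libraries (log2 fold change -4.64, SE 0.34, adjusted p 1.33e-07). In NKT17 cells it was at 344, 276 and 337 CPM in WT and 132, 85.0 and 134 CPM in SKG libraries (log2 fold change -1.44, SE 0.27, adjusted p 0.00226). Its levels did not overlap between genotypes in either subset. Tox, which is needed for CD4 lineage and iNKT cell development, fell from 287 ± 25.7 in WT to 152 ± 28.6 CPM in SKG NKT2 cells (log2 fold change -0.91, SE 0.19, adjusted p 0.00237) and from 128 ± 25.3 to 64.0 ± 2.65 CPM in NKT17 cells (log2 fold change -0.99, SE 0.19, adjusted p 0.00142). The other calls, Sox13 in NKT1 and Tox2 in NKT17 cells, were of genes under 3 CPM in either genotype and are named after their values were seen. The median log2 fold change of the 6 genes was -0.03, -0.47 and -0.69. Among all tested genes 1.82%, 4.05% and 4.54% were called lower in SKG NKT1, NKT2 and NKT17 cells. In WT, NKT1 cells had lower levels of 4 of the 6 genes than NKT2 cells and of 3 than NKT17 cells, by the same calls. These can be set beside 13.7% and 13.5% of all tested genes called lower there.

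Of 7 tested relatives, partners and targets of Bach2, 1 was called lower in SKG NKT1 (Hmox1), 1 higher in SKG NKT2 and 1 higher in SKG NKT17 cells (Prdm1 both times). Prdm1, which encodes Blimp-1, a repressor of effector lymphocytes, rose from 3.74 ± 2.07 to 12.8 ± 3.05 CPM in NKT17 cells (log2 fold change 1.79, SE 0.53, adjusted p 0.0362). Hmox1 and the NKT2 value of Prdm1 lay under 4 CPM in both genotypes and are named after their values were seen. The median log2 fold change of the list was -0.14, 0.19 and 0.04. Calls over all tested genes were 3.27%, 7.95% and 8.37% in NKT1, NKT2 and NKT17 cells.

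The genes whose log2 CPM followed each member most closely over the 18 libraries were taken from 8626 or 8627 other tested genes that averaged 50 counts or more. The points share the 6 groups and the scaling of each library, so r is given as a description. For Id3 these were Ephx1 (Pearson r 0.969, Spearman rho 0.988), Fkbp1a (0.947) and Cd9 (0.946). For Lef1 they were Cd5 (0.966), a negative regulator of TCR signals, Slc28a2 (0.958) and Stmn1 (0.956). For Tcf7 they were 1190002H23Rik (0.974), Icos (0.967), a receptor used in the sort, and Ociad2 (0.964), and for Id2 Pnpla2 (0.904), Arhgap9 (0.894) and Arpc1b (0.891). For the other members the highest r was 0.885 for Sox4 with Cbx6, 0.880 for Tcf3 with Sbf1, 0.780 for Tcf12 with Opa1, 0.777 for Bach2 with Mtrf1l and 0.736 for Tcf4 with Bnip3l. Among the members themselves Id3 had r of 0.709 with Tcf7 and 0.639 with Lef1, Tcf7 and Lef1 had 0.170, and Id2 and Tcf7 had -0.832.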

How the data were processed

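The deposited table holds whole-number read counts per gene symbol. Per the methods of the authors, poly-A RNA was copied by a Smart-seq2-like method, tagmented with Tn5 and sequenced as single-end reads, which were aligned with TopHat 1.4.1 and counted with htseq-count in union mode after low-complexity reads were removed. The methods name mm9, while the submitters' processing notes name mm10 and hg19, Bowtie 1.0.0 and HTSeq 0.7.1. Annotation and strand setting are not given in the sources used here. The reads carry no molecular identifiers, so floors cover counting error only. Libraries of a group differed by more than sampling noise (chi-square per degree of freedom 5.42 to 24.4).

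Columns were joined by sample title, and 2 columns of no listed sample were not used. Genes were filtered with filterByExpr and TMM-scaled with factors from 0.928 to 1.07. In R 4.3.3, edgeR 4.0.16 fitted a robust quasi-likelihood model to 6 groups (12 residual degrees of freedom, common biological CV 21.1%). Tests were two-sided. SE was derived from the log2 fold change and its F statistic. Ratios used counts with a pseudocount of 0.5 on the log scale. Likeness used log2 CPM with a prior count of 2. Lengths and coordinates come from GENCODE M1 (NCBIM37), matched by symbol. All 9 members, for each member the 3 most similar genes, and from each list up to 3 called genes of largest change that averaged 50 counts or more in their higher group were named. The members and lists were chosen with earlier results of these data known. The pipeline was tested on simulated data. Alternatives included DESeq2 1.42.0. Some listed genes that were called are counted in their lists and are not reported here by name.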

Additional observations from a re-analysis of the deposited data

Results flagged for a closer look

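A change between SKG and WT that differed between subsets, by a test of the difference itself, was found for 2 of the 9 genes. For Lef1 the log2 differences were -2.98 (NKT17 minus NKT1, edgeR adjusted p 5.74e-06), -2.09 (NKT17 minus NKT2, edgeR adjusted p 0.000386) and -0.90 (NKT2 minus NKT1, edgeR adjusted p 0.0870). All 3 SKG libraries lay below all 3 WT libraries in NKT2 and NKT17 cells, and the libraries overlapped in NKT1 cells. For Id3 they were -1.95 (NKT17 minus NKT1, edgeR adjusted p 0.0104) and -1.32 (NKT17 minus NKT2, edgeR adjusted p 0.0629), with SKG below WT in every subset. Not all of these calls held. That of Lef1 between NKT2 and NKT1 was not made in 10 of 22 alternatives, and the other 2 of Lef1 were made in all. For Id3, NKT17 minus NKT2 was not called in 13 of 22 alternatives and NKT17 minus NKT1 in 1 of 22. The 3 contrasts share libraries, and the cause of the differences was not tested.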

How the results depend on the processing

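Of the member results that were called in the main analysis or in any alternative (35 results, 584 values), 528 values kept their direction and their side of the thresholds, 42 were no longer called, 14 were newly called and 0 changed direction. Between SKG and WT the number of members called did not move under any of 16 alternatives (1 in NKT1, 2 in NKT2 and 2 in NKT17). Between WT NKT1 and WT NKT2 it was 3 with a mean of at least 50 counts, which leaves Sox4 untested and under which Id2 was not called. It was 3 with only the title tokens found in both genotypes, where Id2 and Sox4 were not called. Between WT NKT1 and WT NKT17 it was 5 with no fold-change minimum. Between WT NKT17 and WT NKT2 it was 1 to 3 as each library was left out, and 1 came without WT NKT17 replicate 3. For the difference of the SKG effect between NKT2 and NKT1 it was 0 at an adjusted p under 0.05, 0 with only the libraries compared, 0 with only the shared title tokens and 0 to 1 as each library was left out. Between NKT17 and NKT1 it was 1 with only the shared title tokens. Between NKT17 and NKT2 it was 1 with no filter on low counts, 1 at an adjusted p under 0.05, 1 with only the libraries compared, 1 with only the shared title tokens and 1 to 2 as each library was left out. The cause was not tested.

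Title tokens pair the samples only in part. Deviations from group means correlated at -0.06 to 0.35 between same-token libraries within a genotype (over 0.1 in 12 of 18 pairs). Between same-token WT and SKG libraries they correlated at -0.15 to 0.09 (over 0.1 in 0 of 18 pairs). Libraries of different tokens had -0.37 to 0.22 (over 0.1 in 15 of 99 pairs). With the replicate block by title token the number of members called was 3 between WT NKT17 and WT NKT2, where Bach2 was added, and otherwise as without it. Lengths of the longest transcript moved the mean level per length of Tcf3 to 33.4, of Tcf4 to 0.279 and of Lef1 to 32.8 CPM per kb. Precision was lowest for Tcf4, Sox4 and Bach2, which had 0 to 88 counts per library and whose intervals between SKG and WT hold changes of several fold. A mean of at least 50 counts left Tcf4, Sox4 and Bach2 untested, and the fit of only the libraries compared gave no value for Sox4 in WT. Fits that leave 2 libraries in a group take their spread from all groups.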
